A study of Saccharomyces cerevisiae with 6 samples.

Results

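Hexose transporters carry glucose into the yeast cell, and the genes described here are the main members of that family together with the proteins that sense glucose for it. They were chosen by symbol in the annotation of the array: the transporter genes HXT1, HXT2, HXT3, HXT4, HXT5, HXT6 and HXT7, the sensor genes SNF3 and RGT2, and MTH1, a co-repressor gene. All 10 were found, each with 1 probe set, among 5656 genes named on the array, and all 10 passed the filter on dim probe sets, which left 5258 genes to test. Transcripts of budding yeast (*Saccharomyces cerevisiae*) were measured on Affymetrix Yeast Genome S98 arrays in a strain without CBC2 (Y2685, cbc2Δ) and in its isogenic wild type (Y255), with 3 arrays per strain. CBC2 encodes the smaller protein of the nuclear cap-binding complex, which binds the 5′ cap of new messenger RNAs. Both strains were grown at 30 °C in SC medium to log phase, at an OD600 of 1. The labels name neither the sugar of the medium nor its concentration. They also do not tie replicates to separate cultures, and the p-values then cover only the spread among these samples, which may be technical.

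The Hxt proteins move glucose across the plasma membrane by facilitated diffusion and differ in affinity. Hxt1 and Hxt3 are low-affinity carriers, made when glucose is plentiful, whereas Hxt2, Hxt6 and Hxt7 are high-affinity carriers, made when glucose is scarce. Hxt4, a carrier of moderate to high affinity whose gene low glucose induces, was placed with the high-affinity class, and Hxt5, of intermediate affinity and made in slowly growing or starved cells, was kept apart. Snf3 and Rgt2 resemble transporters but act as sensors of low and high glucose. Their signal leads to the destruction of Mth1 and of its paralogue Std1, which otherwise help the repressor Rgt1 to keep HXT genes off. A second route, through the kinase Snf1 and the repressors Mig1 and Mig2, shuts down several high-affinity genes when glucose is abundant.

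CBC2 was read first, as a check of the strains. Its normalised intensity was at the floor of 8.25 on all 3 deletion arrays, against 882, 840 and 763 on the wild-type arrays, so the deletion strain was lower by at least 100-fold (limma adjusted p = 1.18e-08). The arrays differed in overall brightness: trimmed means of the deposited intensities ran from 252 on deletion replicate 3 to 474 on wild-type replicate 2, and the intensities were therefore quantile normalised. Wild-type replicates 1 and 2 were washed on fluidics station 1 and the other 4 arrays on station 2, and deletion replicate 2 was scanned on another day than the other 5. A fit with scan day as a block is therefore nearly the same as a fit without deletion replicate 2. The ratio of 3′ to 5′ signal for ACT1, a sign of RNA integrity, was 1.02 to 1.42 on deletion arrays and 1.15 to 1.47 on wild-type arrays.

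The high-affinity transporter genes were higher in the deletion strain, all 4 of them. The log2 change was 1.81 to 2.14 for HXT4, HXT6 and HXT7, and 2.92 for HXT2, whose wild-type signal was so dim that its fold is uncertain. Neither low-affinity gene passed the test, HXT5 was lower, and the sensors and MTH1 did not pass the test. In all, 4 of 10 genes rose and 1 fell at an adjusted p under 0.05, where 32.6% of all tested genes were called, 16.3% upwards and 16.3% downwards. Values of the 2 strains were fully separated for 6 genes of the 10, 5 with the deletion above and 1 with it below, beside 49.8% of all tested genes, 24% with the deletion above and 25.7% with it below. A rise of at least 2-fold that was also called was seen for 4 of 10 genes and for 5.36% of all tested genes. Such comparisons with all tested genes are no test of the group. The genes were chosen with earlier results known, HXT2 passed the filter through its deletion arrays, and HXT6 and HXT7 are not independent readings. The median log2 change of the 10 genes was 0.32, beside 0.00 over all tested genes. Differences are deletion minus wild type on the log2 scale, every adjusted p is that of limma, adjusted by the Benjamini-Hochberg method across the 6957 probe sets tested, and levels are compared between strains within a probe set, not between genes, since probes differ in brightness. In bulk samples such as these, fewer cells with a transcript and less of it per cell cannot be told apart.

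**Figure D1:**
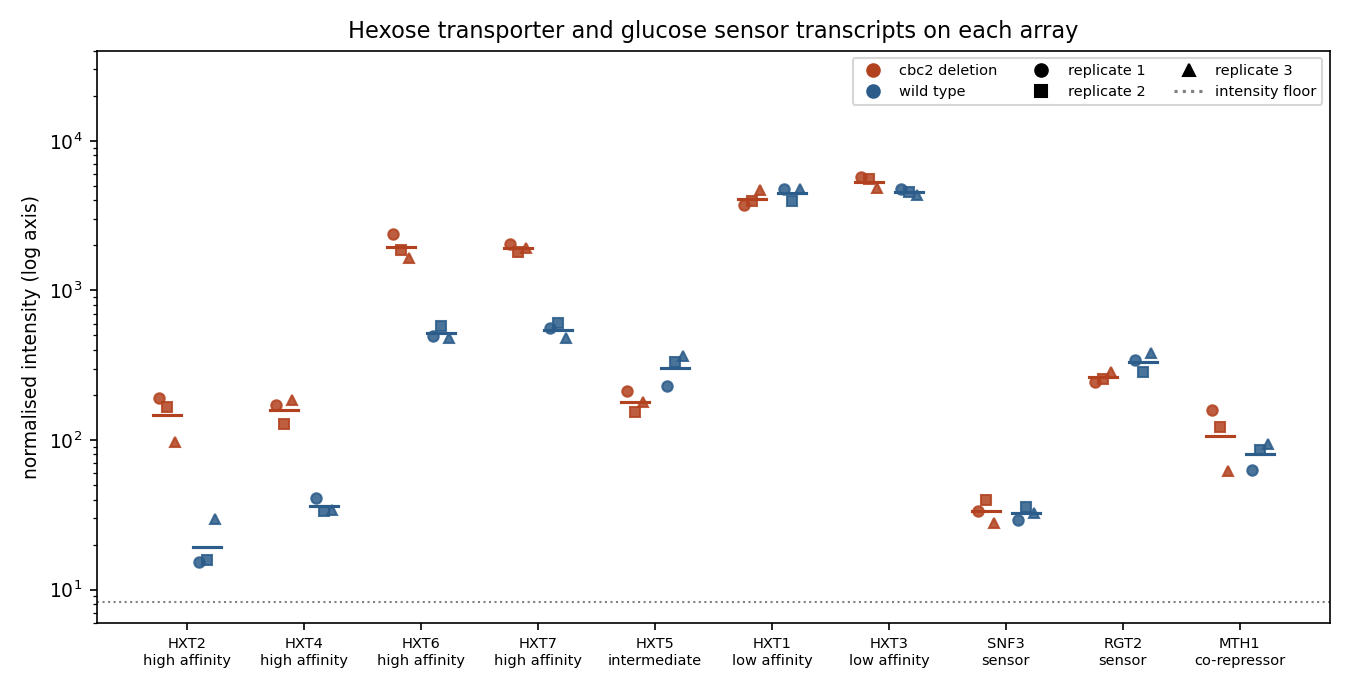
Normalised intensity (log axis) of each transporter, sensor and co-repressor gene on the 3 deletion arrays (left of each pair, red) and the 3 wild-type arrays (right, blue), with a bar at the geometric mean of each strain and a dotted line at the floor of 8.25. HXT2, HXT4, HXT6 and HXT7 are separated between the strains, while the HXT1, SNF3, RGT2 and MTH1 values overlap.

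HXT2 (YMR011W), a high-affinity carrier gene, had normalised intensities of 191, 167 and 97.3 on the deletion arrays, against 15.3, 15.7 and 29.7 on the wild-type arrays. The lowest deletion array, replicate 3, was still above every wild-type array, the highest of which was replicate 3. The log2 change was 2.92 (SE 0.33, 95% interval 2.18 to 3.67, adjusted p = 0.000319), and the rise ranked 9 among 5258 genes. In the wild type the probe set was dim, above only 19.9% of the probe sets and, at a mean of 20.2, under the limit of 27.9 that the filter set on the mean of all arrays. It therefore passed the filter through the deletion arrays, where it is high, and a gene that enters in this way had to differ. Without any filter it was called too (adjusted p = 0.0137), and the size of its fold depends on how low values are treated. The log2 change was 2.19 with a pseudocount of 16 in place of the floor (adjusted p = 0.00028) and 2.30 (adjusted p = 0.0146) when fluidics station entered as a block, a fit that compares the deletion arrays with wild-type replicate 3 alone, within station 2.

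HXT4 (YHR092C) had intensities of 171, 128 and 185 in the deletion strain, against 41.0, 33.7 and 34.1 in the wild type. Every deletion array was above every wild-type array, and neither strain held an array far from its others. The log2 change was 2.14 (SE 0.21, 95% interval 1.68 to 2.61, adjusted p = 0.000204), and the gene ranked 20 among all rises.

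HXT6 (YDR343C) and HXT7 (YDR342C) are near-identical neighbours, and each is read only from a probe set whose suffix marks it as matching a gene family, so their signals are not independent and may include related transcripts. HXT6 read 2392, 1866 and 1646 in the deletion strain, against 495, 582 and 479 in the wild type. HXT7 read 2031, 1796 and 1912 in the deletion strain, against 560, 602 and 477 in the wild type. The strains were far apart for both genes, with the deletion arrays all higher. The log2 changes were 1.91 (SE 0.18) for HXT6 and 1.81 (SE 0.15) for HXT7, with adjusted p = 0.00018 and 0.000105, and the genes ranked 30 and 35 among all rises. Over the 6 arrays, with each gene's log2 values centred on their mean, the closest patterns among the 10 genes by Euclidean distance were those of HXT1 and RGT2 (0.31), HXT6 and HXT7 (0.37), HXT3 and SNF3 (0.42) and HXT4 and HXT7 (0.60). The widest distance was 4.59, between HXT2 and HXT5. Distances are small between any genes that change little, and HXT1, RGT2, HXT3 and SNF3 were not called. Their short distances therefore need not mean a shared pattern.

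**Figure D2:**
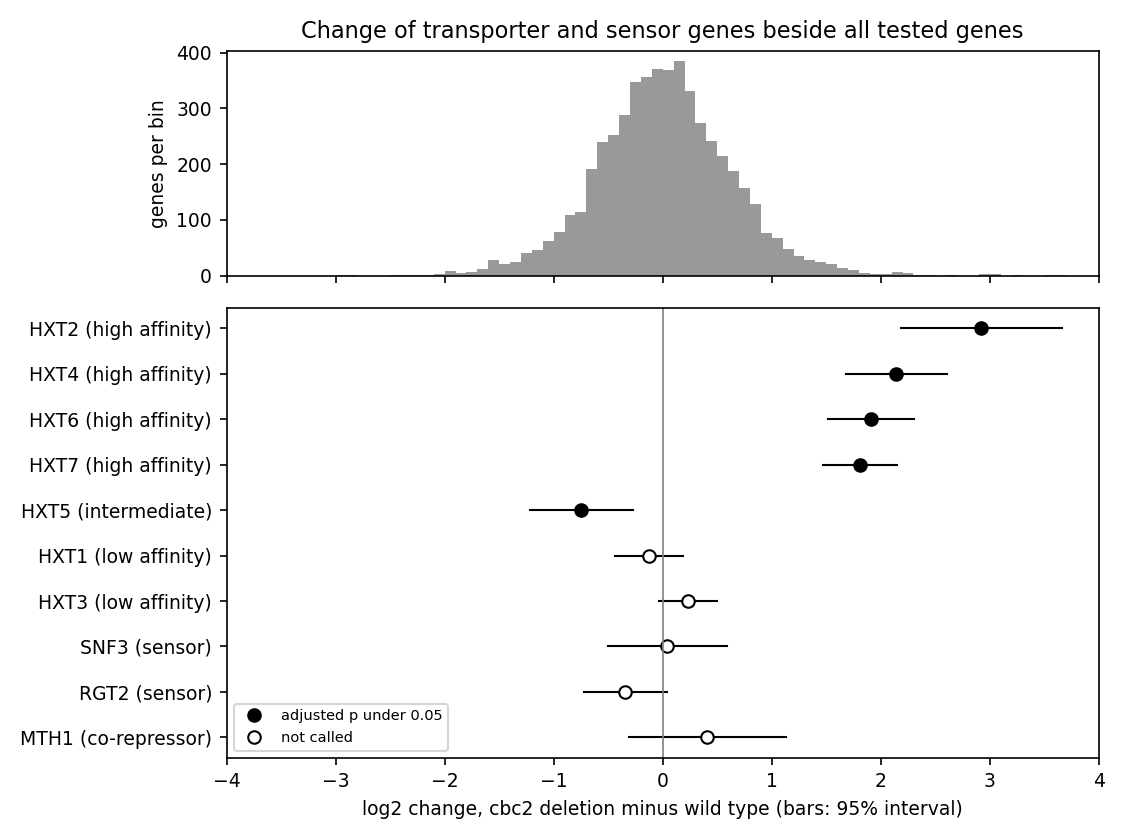
Upper panel: number of tested genes by log2 change (deletion minus wild type, bins of 0.1), with CBC2 beyond the left edge. Lower panel: the log2 change of each gene with its 95% interval, filled where the adjusted p was under 0.05. The intervals of HXT2, HXT4, HXT6 and HXT7 lie wholly above 1.47, and that of HXT5 wholly below 0.

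The low-affinity genes were bright in both strains, and neither was called. HXT1 (YHR094C), a carrier gene that high glucose induces, read 3723, 3940 and 4711 in the deletion strain, against 4797, 3935 and 4757 in the wild type, and the strains overlapped. Its log2 change was -0.13 (SE 0.14, 95% interval -0.44 to 0.19, adjusted p = 0.528). HXT3 (YDR345C), the other low-affinity gene, read 5702, 5531 and 4812 in the deletion strain, against 4762, 4522 and 4360 in the wild type. The deletion arrays were all higher, by a small step: the log2 change was 0.23 (SE 0.12, 95% interval -0.04 to 0.50, adjusted p = 0.171).

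The direction of HXT1 and the call of HXT3 depended on how the arrays were scaled. With the arrays scaled to one median, HXT1 was at 0.315 (adjusted p = 0.239) and HXT3 at 0.69 (adjusted p = 0.00671), and on the deposited scale they were at -0.01 and 0.37 (adjusted p = 0.993 and 0.499). These scalings also moved the brightest 5% of tested probe sets, 347 in number: their median log2 change was -0.06 after quantile normalisation, 0.03 on the deposited scale and 0.35 with one median. Relative to those bright probe sets HXT1 was at -0.07, -0.04 and -0.04, and HXT3 at 0.29, 0.34 and 0.34. The median of all tested probe sets was -0.27 on the deposited scale, and relative to it HXT2, HXT4, HXT6 and HXT7 were at 2.86, 2.08, 2.03 and 1.94.

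By class, the mean log2 intensity of the high-affinity genes was 9.30, 9.02 and 8.93 on the deletion arrays, against 6.84, 6.87 and 6.95 on the wild-type arrays. That of the low-affinity genes was 12.17, 12.19 and 12.22 on the deletion arrays, against 12.22, 12.04 and 12.15 on the wild-type arrays. The first class was higher on every deletion array, and the second overlapped between strains. The high-affinity mean was 2.20 higher in the deletion strain on the log2 scale, with SDs of 0.20 in the deletion strain and 0.05 in the wild type (n = 3 each). That mean includes HXT2, whose change was the largest of the class and whose fold is uncertain. It also counts HXT6 and HXT7 separately, though their signals are not independent. The low-affinity mean was 0.05 higher in the deletion strain, with SDs of 0.02 in the deletion strain and 0.09 in the wild type (n = 3 each). By medians of the gene changes, the classes were at 2.03 and 0.05, a difference of 1.98, which carries no test because the genes were grouped with these results known. It was 2.09 with HXT6 and HXT7 counted as 1 gene and 1.86 with HXT4 left out of the class, both variants chosen after the data had been seen.

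HXT5 (YHR096C) moved the other way. It read 211, 155 and 178 in the deletion strain, against 228, 332 and 363 in the wild type, so that the strains were separated only by the gap between deletion replicate 1 and wild-type replicate 1. The log2 change was -0.75 (SE 0.21, 95% interval -1.22 to -0.27, adjusted p = 0.024). The direction held in all 18 alternative settings, but the call was lost in 8 of them: on the deposited scale (-1.06, adjusted p = 0.0726), with dim probe sets kept (adjusted p = 0.078), with the scan day (-0.64, adjusted p = 0.0799) or the station (-1.01, adjusted p = 0.0624) as a block, and without deletion replicate 2 or 3 or wild-type replicate 2 or 3 (-0.64, -0.74, -0.68 and -0.61, adjusted p = 0.0791, 0.0521, 0.0737 and 0.092).

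The glucose sensor genes did not pass the test. SNF3 (YDL194W), the sensor of low glucose, read 33.6, 39.5 and 27.9 in the deletion strain, against 29.3, 35.4 and 32.6 in the wild type, values that interleaved. Its log2 change was 0.04 (SE 0.24, 95% interval -0.50 to 0.59, adjusted p = 0.916), a dim probe set whose direction turned in 4 of 17 settings, on the deposited scale among them (-0.26). RGT2 (YDL138W), the sensor of high glucose, read 245, 256 and 286 in the deletion strain, against 341, 284 and 381 in the wild type. Deletion replicate 3 was just above wild-type replicate 2, so the strains overlapped there. The log2 change of RGT2 was -0.35 (SE 0.17, 95% interval -0.73 to 0.03, adjusted p = 0.149), it was negative in all 18 settings, from -0.66 to -0.25, and it was called in none of them.

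MTH1 (YDR277C), whose product works with Rgt1 in repression, read 159, 122 and 62.1 in the deletion strain, against 63.0, 86.3 and 94.4 in the wild type. Deletion replicates 1 and 2 lay above the wild-type arrays, and deletion replicate 3 lay just below them all. The log2 change was 0.41 (SE 0.32, 95% interval -0.31 to 1.13, adjusted p = 0.367). Without deletion replicate 3 it was 0.79 and called (adjusted p = 0.0356), and without deletion replicate 1 it was 0.12 (adjusted p = 0.815), so 1 array decided its call. Deletion replicate 3, the array of lowest deposited brightness, was also the lowest deletion array for HXT2, HXT3, HXT6 and SNF3, and the highest for HXT1, HXT4 and RGT2; the part of array brightness in these values was not tested.

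**Figure D3:**
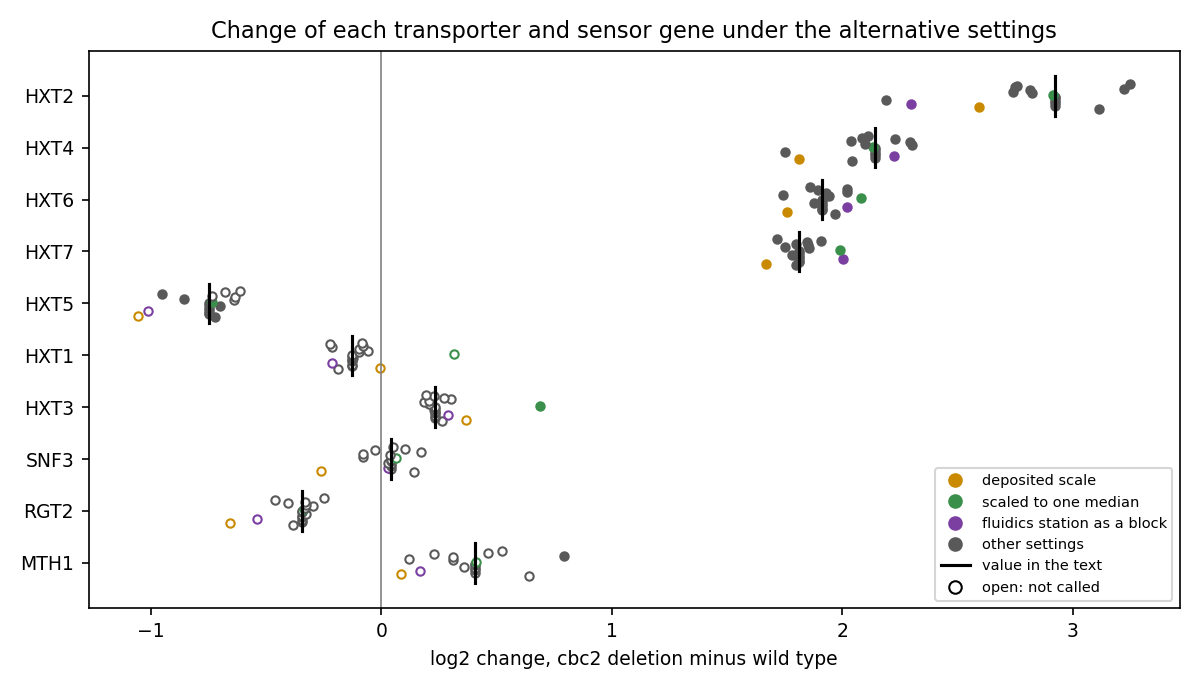
Log2 change of each gene (deletion minus wild type) under every alternative setting that tested it, filled where called and open where not, with a black bar at the value given in the text. HXT2, HXT4, HXT6 and HXT7 are filled throughout, HXT5 stays below 0 with open and filled points, and HXT1 and SNF3 have points on both sides of 0.

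HXT2, HXT4, HXT6 and HXT7 were called higher in every alternative setting that tested them, 17 or 18 in number, from 2.19 to 3.25 for HXT2, 1.75 to 2.30 for HXT4, 1.75 to 2.08 for HXT6 and 1.67 to 2.00 for HXT7. With the station as a block, HXT4 was at 2.23 (adjusted p = 0.00883), HXT6 at 2.02 (adjusted p = 0.00728) and HXT7 at 2.00 (adjusted p = 0.00286). Under a filter that dropped the dimmest 50%, HXT2, HXT4, SNF3 and MTH1 were not among the probe sets tested.

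Most of these transporter genes lie in clusters, and genes of a cluster differed in their changes. By the gene order of assembly R64, HXT7, HXT6 and HXT3 follow each other on chromosome IV with only the open reading frame YDR344C between HXT6 and HXT3, and the first pair rose while HXT3 was not called. On chromosome VIII, HXT4, AHT1, HXT1 and HXT5 are in this order, and HXT4 rose, HXT1 was not called and HXT5 fell. The call of HXT5 was lost in 8 of 18 alternative settings. HXT2 stands alone on chromosome XIII, and SNF3, RGT2 and MTH1 lie apart from each other on chromosome IV. Of 14 flanking protein-coding genes outside the group, looked up after the data had been seen, 12 were tested. Of these, 3 rose and 1 fell, with a median log2 change of 0.08. Among all tested genes 32.6% were called, 16.3% upwards and 16.3% downwards. The share is near that, so the count says nothing particular about the flanks. CLU1, next to HXT2, rose by 0.87 (adjusted p = 0.00636), MSR1, next to HXT4, by 0.79 (adjusted p = 0.009) and RNH202, next to MTH1, by 0.73 (adjusted p = 0.0285), and YDR341C, next to HXT7, was at -0.49 (adjusted p = 0.0113).

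The genes whose pattern over the 6 arrays was closest to that of HXT2, by the same distance over all tested genes, were TMA10 (distance 0.88, log2 change 2.31), the ribosomal RNA gene RDN25-1 (1.12, log2 change 3.57) and the glycerophosphoinositol permease gene GIT1 (1.197, log2 change 2.67). The closest to HXT1 were RCF2, TYS1 and SHE3, at distances of 0.11 to 0.12 and changes of -0.12, -0.11 and -0.10. The closest to MTH1 were NUP170, FOB1 and the transfer RNA gene YNCB0005C, at distances of 0.34 to 0.38 and changes of 0.43, 0.33 and 0.58. Genes with small changes have small distances, so distances are not comparable between these trios.

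The rest of the transporter family could hardly be read. Of 10 other family members looked for, 4 had a probe set of their own, and 6 (HXT9, HXT11, HXT13, HXT15, HXT16 and HXT17) were named only on 3 probe sets that list several genes. HXT8, HXT10 and HXT14 were among the dimmest 25% and were not tested; HXT10 was at the floor on 5 of the 6 arrays. GAL2, the galactose permease gene, read 33.7, 45.4 and 27.6 in the deletion strain, against 34.2, 23.8 and 26.8 in the wild type, and was not called (log2 change 0.32, adjusted p = 0.412).

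Transcripts of the genes listed for hexose phosphorylation were higher in the deletion strain, all 4 of them, with a median log2 change of 0.79. Among all tested genes 16.3% were called upwards, but the list was chosen with earlier results known, so the contrast is no test. HXK1, a hexokinase gene that glucose represses, read 1412, 1145 and 1429 in the deletion strain, against 398, 536 and 444 in the wild type, a log2 change of 1.54 (SE 0.17, adjusted p = 0.000308) that was called in all 18 alternative settings. HXK2, the main hexokinase gene of cells on glucose, read 4218, 3280 and 3599 in the deletion strain, against 2228, 2476 and 1793 in the wild type, with a log2 change of 0.78 (adjusted p = 0.00608). The glucokinase gene GLK1 rose by 0.74 (adjusted p = 0.00454) and its paralogue EMI2 by 0.81 (adjusted p = 0.006). On the deposited scale only HXK1 of the 4 was called, at 1.34 (adjusted p = 0.00968). There HXK2 was at 0.77, GLK1 at 0.69 and EMI2 at 0.55 (adjusted p = 0.124, 0.194 and 0.431). With the station as a block, EMI2 was at 0.84 and not called.

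Of 8 genes listed for the route from the sensors to Rgt1, RGT1 itself and co-repressor genes included, 2 rose, 1 fell and 5 were not called (median 0.24). This share is near the 32.6% called among all tested genes. Besides HXK2, which also acts in repression, TUP1, a subunit of the general co-repressor, rose by 0.75 (adjusted p = 0.00821), reading 892, 653 and 785 in the deletion strain, against 460, 478 and 441 in the wild type. RGT1, the repressor gene itself, read 411, 400 and 522 in the deletion strain, against 631, 590 and 668 in the wild type. The strains did not overlap for RGT1, and its log2 change was -0.51 (SE 0.17, adjusted p = 0.0391), negative in all 18 alternative settings but not called in 10 of them (adjusted p up to 0.238, on the deposited scale). STD1, the paralogue of MTH1, was at 0.30 (adjusted p = 0.252), the casein kinase genes YCK1 and YCK2 were at 0.18 and 0.38 (adjusted p = 0.493 and 0.0805), and GRR1, of the ubiquitin ligase that marks Mth1, was at -0.18 (adjusted p = 0.518). CYC8, the partner of TUP1, was at -0.09 (adjusted p = 0.75). On the deposited scale none of the 8 was called, and with the station as a block 1 was.

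**Figure D4:**
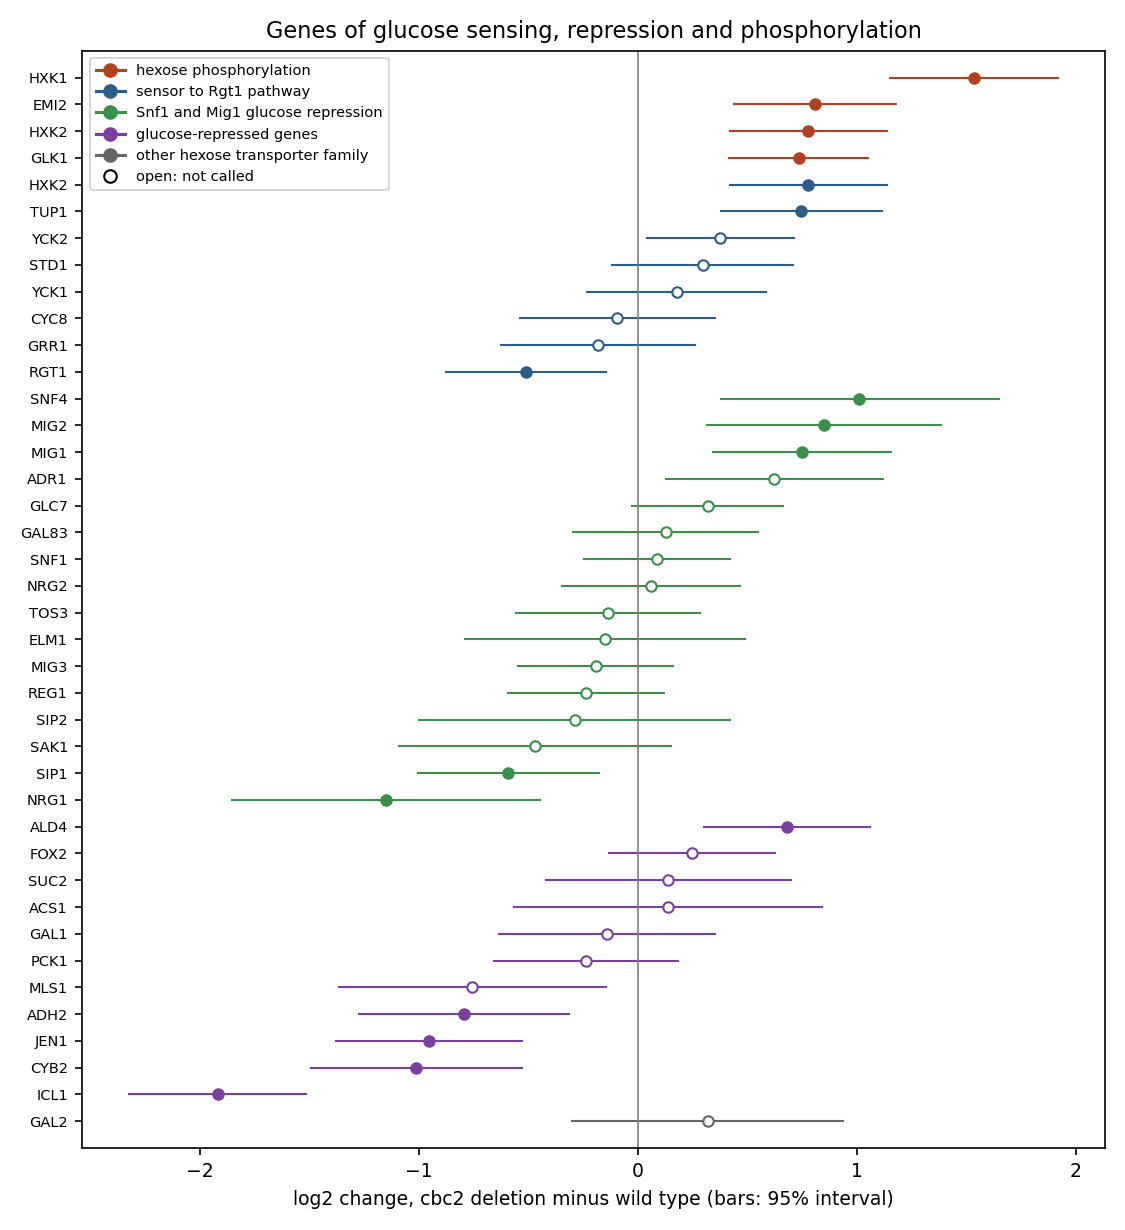
Log2 change (deletion minus wild type) with its 95% interval for the tested genes of 5 lists, sorted within each list and filled where the adjusted p was under 0.05; HXK2 belongs to 2 lists and is drawn in each. All hexose phosphorylation genes lie above 0, and the other lists with called genes hold them on both sides.

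In the Snf1 and Mig1 branch of glucose repression, 3 of 16 tested genes (17 listed) rose, 2 fell and 11 were not called, with a median log2 change of -0.04. This share is near the 32.6% called among all tested genes, so the count says nothing particular about the branch. MIG1, a repressor of high-affinity transporter and sugar-use genes, read 154, 137 and 143 in the deletion strain, against 86.5, 100.2 and 73.1 in the wild type, and rose by 0.75 (SE 0.18, adjusted p = 0.0125). Its paralogue MIG2, itself induced by glucose, read 700, 467 and 480 in the deletion strain, against 217, 375 and 329 in the wild type (log2 change 0.85, adjusted p = 0.0233). SNF4, the activating subunit of the Snf1 kinase, rose by 1.01 (adjusted p = 0.023). NRG1, a repressor of glucose-repressed genes, read 192, 196 and 79.9 in the deletion strain, against 291, 301 and 376 in the wild type (log2 change -1.15, adjusted p = 0.021), and SIP1, a scaffold subunit of the kinase, was at -0.59 (adjusted p = 0.0352). Over 18 alternative settings SIP1 lost its call in 9, SNF4 in 6, MIG2 in 5 and NRG1 in 3, and over 17 MIG1 lost it in 1. SNF1 itself was at 0.09 (adjusted p = 0.691). On the deposited scale, with the station as a block or with dim probe sets kept, 1 of these genes was called in each case, and without wild-type replicate 3 there were 2. With either wild-type replicate 2 or deletion replicate 3 left out, 3 were.

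Of 11 tested genes from a list that glucose represses, 1 rose, 4 fell and 6 were not called, beside 16.3% called upwards and 16.3% downwards among all tested genes. This list too was chosen with earlier results known, so the contrast is no test. The median log2 change was -0.24, and 5 of the 16 listed were too dim to test. ICL1, the isocitrate lyase of the glyoxylate cycle, read 171, 142 and 132 in the deletion strain, against 482, 660 and 547 in the wild type (log2 change -1.92, SE 0.18, adjusted p = 0.000185). The lactate dehydrogenase gene CYB2 was at -1.01 (adjusted p = 0.00701), the lactate permease gene JEN1 at -0.95 (adjusted p = 0.00521) and the alcohol dehydrogenase gene ADH2 at -0.79 (adjusted p = 0.0199). ALD4, a mitochondrial aldehyde dehydrogenase gene, rose by 0.68 (adjusted p = 0.014). SUC2, the invertase gene, was at 0.14 (adjusted p = 0.709) and GAL1, the galactokinase gene, at -0.14 (adjusted p = 0.663). The other genes not called were MLS1 at -0.76 (adjusted p = 0.059), PCK1 at -0.24 (adjusted p = 0.365), ACS1 at 0.14 (adjusted p = 0.772) and FOX2 at 0.25 (adjusted p = 0.298). SUC2 had 3 probe sets, of which only 1 was read here. That probe set bears a cross-hybridisation suffix, so its signal may include related transcripts. The calls of ICL1, CYB2 and JEN1 held in every alternative setting that tested them, while ADH2 lost its call in 5 of 17 and ALD4 in 1 of 18, the deposited scale.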

How the data were processed

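The authors deposited a table of linear intensity values for 9335 probe sets on 6 arrays; how they summarised or scaled them is not given in the sources used here. Deposited run files were read only for fluidics station and scan day. Trimmed array means (2% cut at each end) differed 1.88-fold, above the limit of 1.2-fold, so intensities were quantile normalised, which removes any shift shared by all transcripts. Values were raised to a floor at the 10th percentile (8.25) and log2 transformed. After removal of 60 control probe sets, the dimmest 25% were dropped, leaving 6957. Strains were compared with limma 3.58.1 in R 4.3.3 (eBayes with intensity trend, Benjamini-Hochberg adjustment). The script was tested on simulated data. The number of arrays limits the precision (median SE 0.20, log2 scale).

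Probe sets were named by the platform annotation (6504 with 1 symbol, 328 with several, 2503 with none), updated by gene ID through a RefSeq table (assembly R64) that served names and gene order only. Each gene was read from the brightest of its probe sets free of a cross-hybridisation suffix, or, lacking such a set, from the brightest with one. The genes, classes and 5 pathway lists were chosen with earlier results of these data known. Named are all 10 genes, the called genes of each list with some of the others, and the 3 genes closest in pattern to HXT1, HXT2 and MTH1. No sequence is shown.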

Additional observations from a re-analysis of the deposited data

How the results depend on the processing

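Of the 18 alternatives, each changing 1 choice, none turned the direction of HXT2, HXT3, HXT4, HXT5, HXT6, HXT7, RGT2 or MTH1. The scan day block and the fit without deletion replicate 2 are nearly the same fit, so counts of settings include both. HXT1 was at 0.315 with the arrays scaled to one median. SNF3 was at -0.26 on the deposited scale and at -0.08 with the scan day as a block, and from -0.078 to 0.172 with each array left out in turn. Of the 10 genes 5 were called; 3 were called with the dimmest 50% left out, where only 6 were tested, and 4 or 5 with each array left out. The count of called probe sets, 2187, was 725 on the deposited scale (163 higher, 562 lower), 675 with the station as a block, and 1501 to 1963 with each array left out. With one median it was 1259 higher and 967 lower. Called genes of the 5 lists together, 16, were 5 on the deposited scale, 8 with the station as a block and 12 to 15 with each array left out. The difference between the class medians, 1.98, was 1.61 on the deposited scale and with one median, 1.78 with the pseudocount, and 1.86 to 2.06 with each array left out. Except where a choice itself left fewer genes to test, the cause was not tested. With the replicate number as a block (replicate block), the change of HXT5 kept its call (-0.75, adjusted p = 0.0436). The call of RGT1 was lost there. Deviations from strain means correlated at -0.23, -0.09 and 0.08 between same-numbered arrays, and 2 of 6 arrays correlated best with their own number. With 3 arrays per strain such deviations constrain each other, so these values cannot decide whether the numbers pair the samples.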
